A study of Acomys cahirinus and Mus musculus with 24 samples.

Results

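The genes described here are 48 genes of the interferon response and of antigen presentation, chosen by symbol from a fixed list and followed through skin wounds of 2 rodents. Of the 48, 45 have a row in the count table shared by both species, Ifit3 has one only in the mouse table, and Mx1 and Mx2 have no row in the tables used here and were not analysed. The shared table holds 14514 genes once spike-in RNAs are set aside. Total RNA was sequenced with paired-end reads from dorsal skin of adult Mus musculus of the outbred stock CD-1 and of adult Acomys cahirinus, the spiny mouse, for which the labels give no strain. Skin was sampled unwounded (day 0), or as wound tissue 7 or 14 days after an 8 mm full-thickness excision on the back. Each species and day has 4 libraries, except Mus day 0 with 3, since the submitters removed replicate 3 for poor quality. Nothing in the labels ties each library to its own animal. The spread behind every p-value is thus that between these libraries, and part of it may be technical.

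Interferons are secreted proteins that warn tissue of virus or other damage. Receptors for them signal through kinases to transcription factors, Stat2 and Irf9 among them, which switch on interferon-stimulated genes: sensors of foreign RNA and DNA, enzymes that degrade viral RNA, and proteins that block entry or budding of virus. Interferon gamma, made mainly by T and NK cells, also induces large GTPases, the immunoproteasome and peptide transporter that load class I molecules, and, through Ciita, the class II molecules that present peptides to helper T cells. In skin, keratinocytes, fibroblasts and infiltrating leukocytes can all respond.

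Levels are CPM of the shared table, which is a gene's count relative to the scaled library size, and library values are listed in order of replicate number (1, 2 and 4 for Mus day 0; 1, 2, 3 and 4 otherwise). Changes are log2 fold changes ± 1 standard error (SE) from a single edgeR quasi-likelihood fit to all 23 libraries, and the words rose and fell are used where a gene's Benjamini-Hochberg adjusted p over all 14514 genes was under 0.05. Library totals ran from 5980683 to 9853153 counts. Both wound comparisons of a species use the same unwounded libraries. Trim25 has 0 counts in all 11 Mus libraries of the shared table, although the Mus table holds 8382 expected counts for it, so 44 members were tested wherever Mus was involved and Mus Trim25 is given from the Mus table. The shared table holds a median of 73.9% of a member's own-table counts in Mus and 72.2% in Acomys, but only 10.9% for Oas2, 26.8% for Irgm1, 29.2% for Psmb9 and 40.2% for Oas3 in Mus. Genes of the Oas, Ifit, Ifitm, Gbp and H2 families resemble one another in sequence, so reads may be split between relatives, and their levels are uncertain to that extent.

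In the annotation of the mouse genome (GENCODE vM21, build GRCm38, a later build than the submitters' mm9) 7 members lie in 1 stretch of chromosome 17: Psmb9, Tap1, Psmb8, Tap2, H2-Ab1, H2-Aa and H2-Eb1, from position 34181987 to position 34316674. Gbp5, Gbp3 and Gbp2 lie together on chromosome 3, Oasl2, Oasl1, Oas2, Oas3 and Oas1a are on chromosome 5, and Rsad2 and Cmpk2 are neighbours on chromosome 12. Gene bodies of Dtx3l and Parp9 overlap by 682 bases on chromosome 16, and those of Psmb9 and Tap1 by 212 bases; the labels do not say whether counting used strand, so reads from these stretches cannot be assigned to 1 gene of the pair.

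In Mus, 22 of 44 members (50%) were higher and 1 was lower in the wound at day 7, while 27% of all genes were higher and 26.7% lower. At day 14 again 22 were higher and 0 lower, against 21.6% higher and 22.1% lower over all genes (at an unadjusted p under 0.05, 24 were higher and 0 lower, and DESeq2 called 23 and 0). In Acomys at day 7, 17 of 45 members (37.8%) were higher and 5 lower, against 30.4% and 31.4% over all genes. At day 14 Irf8 was the 1 member higher in Acomys, and Ifitm1 and Tap1 were lower, against 18.9% and 20% of all genes. In the Acomys table alone that comparison gave 7 higher and 4 lower, against 11.7% and 10.5% of all genes tested there. The count at day 14 in Acomys thus rested on the table and on the spread used. The median member changed by 0.98 and 0.89 on the log2 scale at days 7 and 14 in Mus and by 0.33 and 0.11 in Acomys, where the median over all genes lay between -0.03 and 0.

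From day 7 to day 14 in Mus, 0 members were higher and Irf1, Ifitm1 and Ifitm3 were lower, against 9.6% and 12.5% of all genes (at an unadjusted p under 0.05, 1 higher and 4 lower; DESeq2, 0 and 4). In Acomys, Ciita was higher and Irf7, Irf8, Oasl1, Ifi35 and Gbp2 were lower over the same interval, against 22.6% and 21.8% of all genes. Without the 3 muscle-poor Mus libraries described below, the Mus comparison gave 3 higher (Ifit1, Usp18 and Xaf1) and 1 lower (Ifitm1). The Mus count of 3 was 1 without day 7 replicate 4 or day 14 replicate 3, and 5 without day 14 replicate 1. The Acomys count of 6 was 2 to 3 without day 7 replicate 2, 3 or 4 or without any 1 of the day 14 libraries, and it was 11 in the Acomys table. Calls in Mus depended on how the spread was estimated. With only the 2 groups compared in the fit, 14 were higher at day 7 and 14 at day 14. Shares of all genes are not given here for that fit, nor for the fits above with libraries left out. The Mus table, with Trim25 and Ifit3 left out, gave 12 and 11, and 29.3% and 23.2% of all genes tested there were higher.

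Mus wounds differed among themselves along the replicate number. Replicates 1 and 4 were the 2 highest libraries for 43 of 44 members at day 7 and for 37 of 44 at day 14, where the same pair led for 20.4% and 24.5% of all genes. The exception at day 7 was H2-Eb1. The median member stood 1.61, 0.33, -0.03 and 1.27 above the Mus day 0 mean, as log2(CPM + 1), in day 7 replicates 1 to 4, and 1.45, 0.36, 0.27 and 0.87 above it at day 14. Without the 3 Mus libraries numbered 1, a choice made after seeing the data, 12 members were higher at day 7, and at day 14 there were 8 higher and 3 lower. Of the calls made with all libraries, 10 of 23 were lost at day 7 (Ddx58, Zbp1, Irf1, Irf7, Stat2, Parp14, Oas1a, Oas3, Ifi44 and Irgm1). At day 14, 14 of 22 were lost (Zbp1, Irf7, Irf8, Stat2, Parp9, Parp14, Ifit1, Ifit2, Oas1a, Oas2, Rsad2, Ifitm3, Xaf1 and Gbp3). Leaving out the single library day 7 replicate 1 left 12 higher and 1 lower, and leaving out day 14 replicate 1 left 10 higher and 3 lower. Without day 0 replicate 1 the 2 comparisons gave 15 and 14 higher, and without day 0 replicate 2 they gave 13 and 11. A fit with fewer libraries can call fewer genes of any kind, and the shares of all genes called in these fits are not given here. These losses are thus not shown to be particular to the members.

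**Figure D1:**
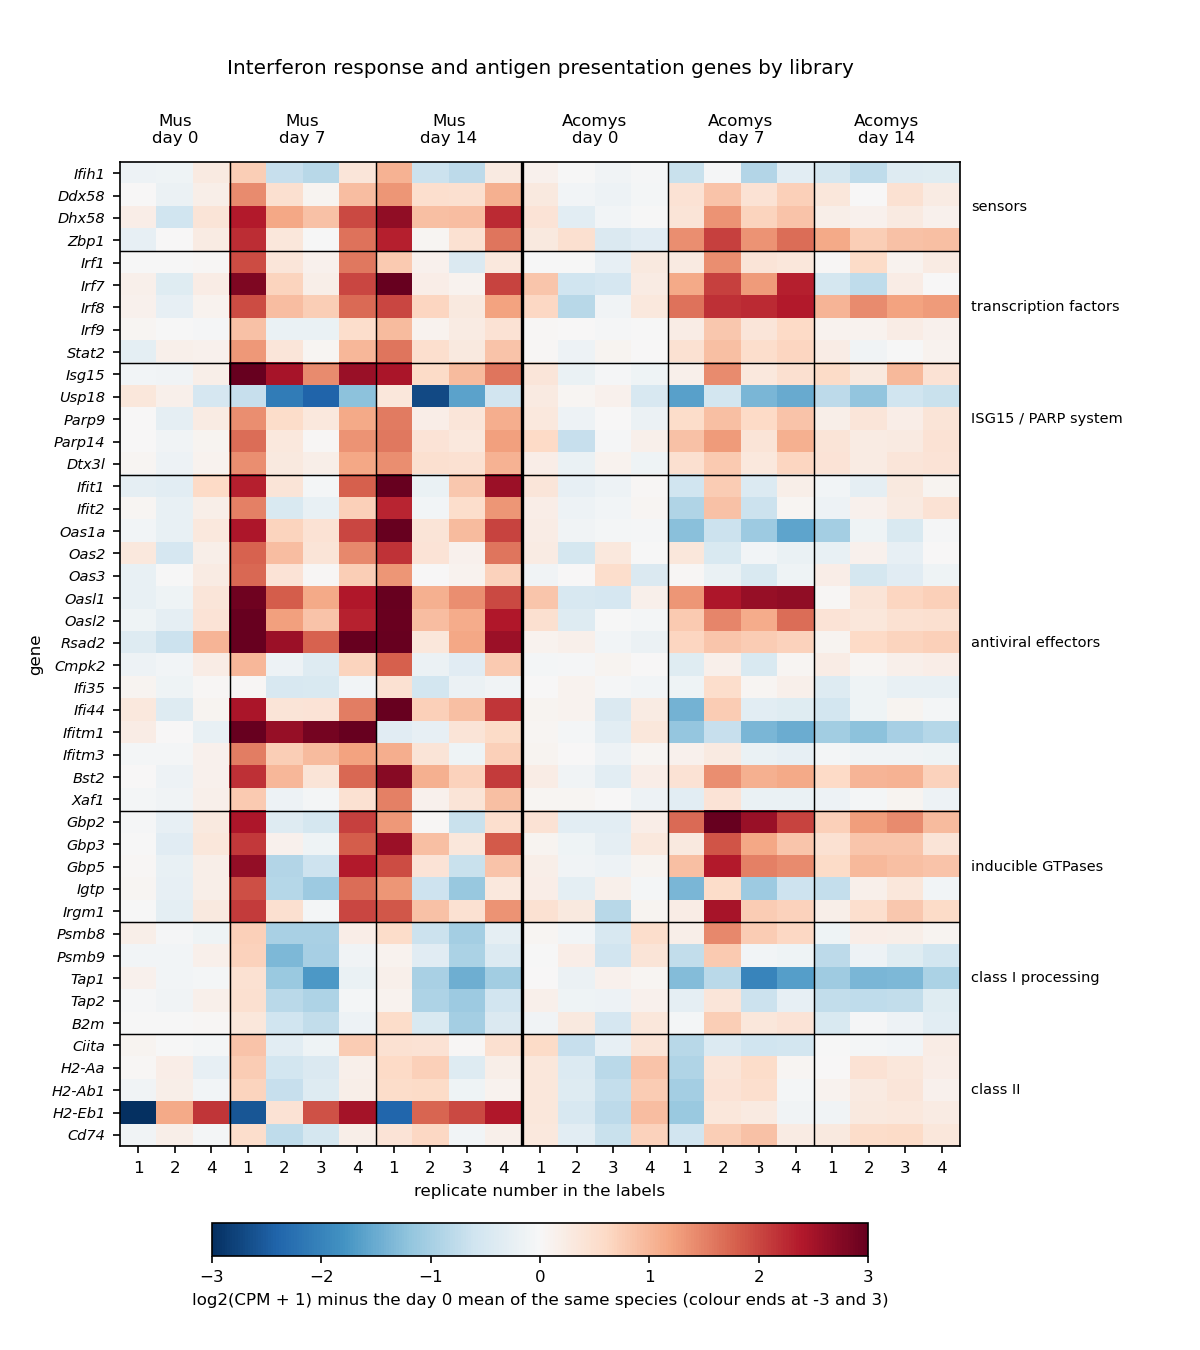
Each row is 1 of 44 members (Trim25 left out), each column 1 library, and colour is log2(CPM + 1) minus the day 0 mean of the same species, with the colour scale ending at -3 and 3. In Mus wounds the columns of replicates 1 and 4 are the darkest red at both days, and in Acomys the red of day 7 (deepest in replicate 2) is paler at day 14.

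At day 7, replicates 1 and 4 were also the 2 highest Mus libraries for 7 of 11 lists of cell type markers: T and NK cell, monocyte and macrophage, neutrophil, dendritic and Langerhans cell, endothelial, B and plasma cell (1 marker measured) and red blood cell (1 marker measured). At day 14 they were the 2 highest for 3 lists, those of T and NK cells, of monocytes and macrophages and of skeletal muscle. The summed level of T and NK cell markers (12 of 14 listed markers measured, none at 0 throughout a group) was 28.8 to 32.9 CPM in unwounded Mus skin, 91, 27, 17.8 and 67.7 CPM in day 7 replicates 1 to 4, and 82.4, 29, 14.8 and 33.4 CPM at day 14. In Acomys it was 72.5 to 104 CPM at day 0, 85.2, 125, 70.3 and 114 CPM at day 7, and 79.1 to 101 CPM at day 14. Skeletal muscle markers also differed among Mus wounds: their sum was 26.5 CPM in day 7 replicate 3 and 11.3 and 23.4 CPM in day 14 replicates 2 and 3, against 1330 to 5440 CPM in the other Mus wounds. Without those 3 muscle-poor libraries 26 members were higher at day 7 and 26 at day 14. The share of all genes called in that fit is not given here. These counts thus do not say whether the members moved more than other genes. At day 14 that fit kept only Mus replicates 1 and 4, the 2 highest for 37 of 44 members (24.5% of all genes). At day 7 it dropped replicate 3, the lowest for 30 of 44 members (27.4% of all genes). Counts without these libraries thus do not test muscle content apart from the level of the members. Monocyte and macrophage markers (11 of 12 measured) summed to 1330 to 1480 CPM in unwounded Mus skin, to 3430, 2260, 3050 and 3190 CPM in day 7 replicates 1 to 4 and to 3190, 2520, 2310 and 3120 CPM at day 14. In Acomys they summed to 291 to 680, 2660 to 4560 and 1000 to 1320 CPM at days 0, 7 and 14. The part of these cells in the changes below was not tested, and in whole tissue more cells of a type and more RNA per cell cannot be told apart.

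**Figure D2:**
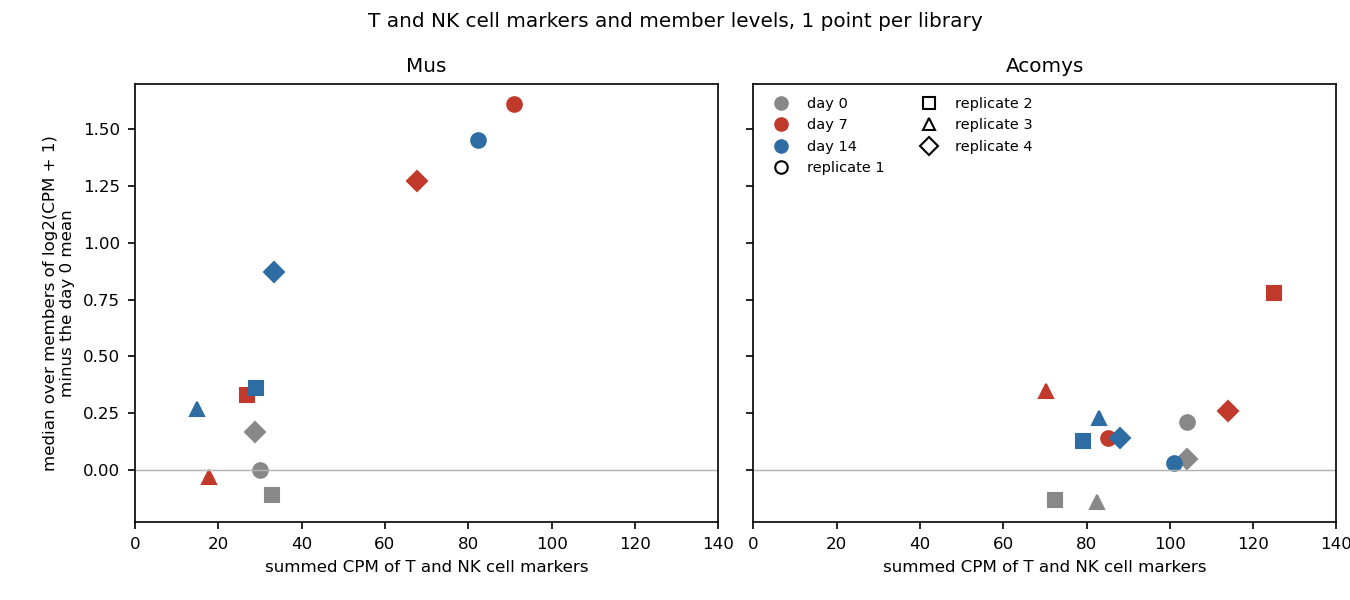
Each point is 1 library, with the summed CPM of 12 T and NK cell markers on the x axis and the median over members of log2(CPM + 1) minus the species' day 0 mean on the y axis; colour is the day and symbol the replicate number. Mus day 7 replicates 1 and 4 and day 14 replicate 1 lie at the upper right, at 91, 67.7 and 82.4 CPM of markers. Mus day 14 replicate 4 has a median of 0.87 at 33.4 CPM, near the level of unwounded Mus skin. The Acomys libraries, at 70.3 to 125 CPM, have medians from -0.14 to 0.78. These markers are 1 of 11 lists, and a link with the members was not tested.

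Among the sensors, Dhx58, Ddx58 and Zbp1 rose at day 7 in both species, and stayed higher at day 14 in Mus. Dhx58 encodes LGP2, which tunes the RNA sensors RIG-I and MDA5. In Mus it stood at 4.04, 1.88 and 4.75 CPM in unwounded skin, at 21.8, 8.8, 7.03 and 16.3 CPM at day 7, and at 26.6, 7.11, 7.3 and 19.5 CPM at day 14. All 8 wounds were above all 3 unwounded skins. The change was 1.92 ± 0.48 at day 7 (adjusted p = 0.00198) and 2.1 ± 0.479 at day 14 (adjusted p = 0.00129). In Acomys, Dhx58 was at 9.93, 5.55, 6.68 and 7.19 CPM at day 0, at 9.77, 19.9, 12 and 13.9 CPM at day 7, and at 8.25, 8.01, 8.93 and 8.02 CPM at day 14. Its rise at day 7 was 0.91 ± 0.392 (adjusted p = 0.0497) with overlapping groups, and at day 14 the difference was 0.17 ± 0.399 (adjusted p = 0.771).

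Ddx58, which encodes RIG-I, a sensor of viral RNA ends, was at 41.9, 36.6 and 47 CPM in unwounded Mus skin, at 112, 58.4, 44.2 and 79.6 CPM at day 7 and at 105, 59.8, 58.9 and 88.3 CPM at day 14. Its changes were 0.81 ± 0.246 (adjusted p = 0.00849) and 0.9 ± 0.247 (adjusted p = 0.00535), and the groups overlapped at day 7 but not at day 14. Acomys Ddx58 was at 27.5, 20.8, 19.9 and 21.5 CPM at day 0 and at 30.4, 41.2, 30.3 and 36.9 CPM at day 7, higher in each wound, by 0.63 ± 0.23 (adjusted p = 0.0232). Zbp1, a sensor of Z-form nucleic acid, rose in Mus by 1.44 ± 0.545 at day 7 (adjusted p = 0.0316) and 1.51 ± 0.546 at day 14 (adjusted p = 0.0299), with wounds from 5.68 to 32.8 CPM against 4.64 to 7 CPM. Without the Mus libraries numbered 1 the changes were 0.76 and 0.85 (adjusted p = 0.249 and 0.216). In Acomys it rose by 2.03 ± 0.567 at day 7 (adjusted p = 0.00411), from 0.975 to 2.78 CPM up to 5.87 to 10.2 CPM. Ifih1, which encodes MDA5, did not pass in any of these 4 comparisons: its changes were 0.04 ± 0.384 and 0.15 ± 0.384 in Mus, and -0.45 ± 0.351 and -0.52 ± 0.351 in Acomys.

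Of the 5 transcription factors, 4 rose at day 7 in each species. In Mus, Irf1, Irf7, Irf8 and Stat2 rose, and in Acomys Irf7, Irf8, Irf9 and Stat2. Irf7, the amplifier of the type I interferon loop, was at 13.8, 9.4 and 15 CPM in unwounded Mus skin, at 91.7, 20.3, 14 and 53.1 CPM at day 7, and at 130, 14, 13.5 and 53.4 CPM at day 14. Replicates 1 and 4 were several times above unwounded skin and replicates 2 and 3 were near it. The change was 1.83 ± 0.755 at day 7 (adjusted p = 0.0484) and 2.07 ± 0.758 at day 14 (adjusted p = 0.0335), and neither call held without the Mus libraries numbered 1 (adjusted p = 0.173 and 0.211). Acomys Irf7 was at 40.5, 15, 15.5 and 26.8 CPM at day 0, at 50.1, 96.3, 55.1 and 116 CPM at day 7, and at 15.1, 12.8, 26 and 22.4 CPM at day 14. Each day 7 wound was above each unwounded skin and each day 14 wound, with a rise of 1.7 ± 0.645 (adjusted p = 0.029) and then a change of -2.05 ± 0.651 from day 7 to day 14 (adjusted p = 0.0153).

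Irf8, a factor of monocyte and dendritic cell lineages that interferon gamma also induces, rose at both days in both species. In Acomys it was at 17.7, 5.81, 10.4 and 14 CPM at day 0, at 36.5, 54.8, 56.7 and 62 CPM at day 7, and at 23.7, 31.8, 27 and 28.8 CPM at day 14. No wound overlapped unwounded skin, and the changes were 2.11 ± 0.36 (adjusted p = 4.02e-05) and 1.19 ± 0.359 (adjusted p = 0.012). In Mus, Irf8 was at 26.1, 19.9 and 25.5 CPM at day 0, 95.1, 45.9, 40.1 and 78.6 CPM at day 7, and 97.5, 37.8, 29.4 and 56.2 CPM at day 14, again without overlap, with changes of 1.45 ± 0.383 (adjusted p = 0.00338) and 1.21 ± 0.382 (adjusted p = 0.0141). Macrophage markers moved with both, as given above. Irf1, an early target of interferon gamma, was at 47 to 48.6 CPM in unwounded Mus skin and at 189, 61.9, 52.4 and 145 CPM at day 7, a rise of 1.23 ± 0.38 (adjusted p = 0.00992). By day 14 it was at 82.4, 52.4, 34.9 and 59.4 CPM, and its difference from unwounded skin was 0.26 ± 0.375 (adjusted p = 0.606). In Acomys, Irf1 reached 65 CPM in day 7 replicate 2 and 29.3 to 32 CPM in the other 3 libraries, against 20.3 to 29.8 CPM at day 0, and did not pass (0.68 ± 0.352, adjusted p = 0.103).

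Stat2, a subunit of the factor that carries the type I interferon signal to DNA, was at 21.1, 29.2 and 28.6 CPM in unwounded Mus skin and rose by 0.76 ± 0.279 at day 7 (adjusted p = 0.0255) and 0.92 ± 0.279 at day 14 (adjusted p = 0.011). Without the Mus libraries numbered 1 its changes were 0.37 and 0.45 (adjusted p = 0.181 and 0.124). In Acomys it rose by 0.65 ± 0.248 at day 7 (adjusted p = 0.0282), from 32.2 to 37.9 CPM up to 49.2 to 67 CPM, without overlap. Its partner Irf9 rose in Acomys by 0.54 ± 0.2 at day 7 (adjusted p = 0.0248). In Mus, Irf9 changed by 0.34 ± 0.221 (adjusted p = 0.21) and 0.48 ± 0.222 (adjusted p = 0.0839).

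In the ISG15 system, 4 of 5 tested members rose and Usp18 fell at day 7 in Mus, and in Acomys 3 of 6 rose and Usp18 fell. Isg15 is a ubiquitin-like protein that interferon induces and that is attached to other proteins. In Mus it was at 1.95, 1.88 and 2.5 CPM in unwounded skin, at 33.6, 16.2, 7.3 and 17.7 CPM at day 7, and at 16, 3.65, 5.03 and 8.48 CPM at day 14. All Mus wounds lay above unwounded skin, and the change was 3.14 ± 0.536 at day 7 (adjusted p = 4.56e-05) and 1.97 ± 0.545 at day 14 (adjusted p = 0.00579). In Acomys it was at 3.24, 1.89, 2.23 and 2.02 CPM at day 0, at 2.66, 7.88, 3.11 and 3.61 CPM at day 7, and at 3.94, 3.07, 5.45 and 3.5 CPM at day 14. Groups overlapped, and neither change passed in the shared table (0.85 ± 0.486, adjusted p = 0.134, and 0.76 ± 0.487, adjusted p = 0.235), although in the Acomys table the day 7 change of 0.93 did.

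Usp18, the protease that removes Isg15 and damps the type I receptor, fell at day 7 in both species. In Mus it was at 37.6, 33.1 and 20.5 CPM in unwounded skin and at 17.8, 6.08, 4.73 and 11.9 CPM at day 7, below it in every library, with a change of -1.58 ± 0.517 (adjusted p = 0.0144). By day 14 it was at 37.6, 3.65, 9.09 and 19.6 CPM and did not pass (-0.79 ± 0.503, adjusted p = 0.219). In Acomys it fell from 8.21 to 14 CPM to 3.16 to 7.67 CPM at day 7 (-1.4 ± 0.518, adjusted p = 0.0246). The Usp18 call in Mus was not made without day 0 replicate 1, and not in the Mus table.

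Parp9, Parp14 and Dtx3l, 3 genes of chromosome 16 that encode members of the PARP family and a ubiquitin ligase partner of Parp9, rose together at day 7 in both species and at day 14 in Mus. Their Mus changes were 0.91 ± 0.279, 1 ± 0.372 and 0.85 ± 0.255 at day 7 and 0.92 ± 0.279, 0.99 ± 0.372 and 0.91 ± 0.255 at day 14. In Acomys at day 7 they were 0.73 ± 0.256, 0.88 ± 0.339 and 0.57 ± 0.231. Trim25, the ubiquitin ligase that assists RIG-I, rose in Mus with a small spread. In the Mus table it was at 23.9, 23.7 and 27.1 CPM in unwounded skin, at 124, 106, 86.8 and 90.5 CPM at day 7, and at 72.6, 59.4, 59.6 and 66.7 CPM at day 14. The 3 groups did not overlap, with changes of 2.03 ± 0.135 at day 7 (adjusted p = 9.26e-07) and 1.37 ± 0.133 at day 14 (adjusted p = 1.75e-05). Replicates 1 and 4 were the 2 highest at day 14 but not at day 7, and in both groups all 4 libraries lay close together. In the Acomys table Trim25 lay between 38.8 and 60.4 CPM in all 12 libraries, with changes of 0.21 ± 0.128 (adjusted p = 0.21) and 0.09 ± 0.128 (adjusted p = 0.682). Because the 2 species' values come from separate tables, this difference was not tested.

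Of the 15 antiviral effectors tested in Mus, 10 rose at day 7 and 11 at day 14. In Acomys 3 of 15 rose at day 7 (Bst2, Oasl1 and Oasl2), Oas1a and Ifitm1 fell, and at day 14 none rose (1 at an unadjusted p under 0.05, 0 with DESeq2) and Ifitm1 was lower. At day 7 in Mus, Rsad2 had the largest change after Ifitm1 among the members. It encodes viperin, an enzyme that makes a chain-terminating nucleotide. In Mus it was at 2.25, 1.76 and 7.75 CPM at day 0, at 67.9, 24.2, 13.7 and 37.6 CPM at day 7, and at 41.4, 4.38, 8.6 and 24.3 CPM at day 14. Day 7 wounds did not overlap unwounded skin and day 14 replicate 2 did, and the changes were 3.17 ± 0.657 (adjusted p = 0.000414) and 2.31 ± 0.654 (adjusted p = 0.00719). In Acomys it was at 3.37 to 4.42 CPM at day 0, at 6.71, 7.77, 7.38 and 6.92 CPM at day 7, and at 4.22, 6.47, 6.79 and 7.01 CPM at day 14. The Acomys day 7 wounds were all above unwounded skin, but the change of 0.87 ± 0.596 did not pass (adjusted p = 0.215). Cmpk2, the kinase encoded next to Rsad2, did not pass in either species (0.41 ± 0.413 and 0.84 ± 0.411 in Mus, -0.16 ± 0.394 and 0.19 ± 0.387 in Acomys).

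The oligoadenylate synthetase family, whose products activate RNase L to cut RNA, split by gene. Oas1a was at 5.09, 4.51 and 7 CPM in unwounded Mus skin, at 33.6, 9.28, 7.7 and 24.8 CPM at day 7 and at 52.4, 7.48, 11.4 and 25.5 CPM at day 14. Its changes were 1.76 ± 0.581 (adjusted p = 0.0149) and 2.12 ± 0.582 (adjusted p = 0.00567), with no overlap at either day. In Acomys it was at 5.85, 4.42, 4.6 and 4.72 CPM at day 0, at 1.48, 2.77, 1.78 and 0.974 CPM at day 7, and at 1.88, 4.39, 3.3 and 4.7 CPM at day 14. Every day 7 wound was below every unwounded skin, a change of -1.49 ± 0.612 (adjusted p = 0.0409), and day 14 did not pass (-0.47 ± 0.563, adjusted p = 0.55).

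Oasl1 and Oasl2, the synthetase-like genes, rose in both species at day 7. Oasl1 went from 0.749, 0.878 and 1.63 CPM to 14, 6.24, 3.51 and 9.84 CPM in Mus (2.93 ± 0.709, adjusted p = 0.00156), and from 6.48, 2.02, 1.95 and 3.71 CPM to 9.47, 21.6, 24.6 and 25.4 CPM in Acomys (2.48 ± 0.514, adjusted p = 0.000299). It was the one member whose rise at day 7 was called in both species under all 16 alternatives tried for each. At day 14 Oasl1 was at 20.1, 3.28, 4.38 and 7.16 CPM in Mus (2.98 ± 0.709, adjusted p = 0.00189), and at 3.28, 4.5, 5.54 and 5.9 CPM in Acomys, within the range of unwounded skin (0.41 ± 0.537, adjusted p = 0.584). The Acomys fall from day 7 to day 14 was -2.07 ± 0.491 (adjusted p = 0.00181), and all day 14 libraries were below all day 7 libraries. Oasl2 was at 9.13, 8.28 and 13.8 CPM in unwounded Mus skin, at 88.8, 25.4, 19.2 and 54.5 CPM at day 7 and at 85.5, 20.2, 23 and 58.2 CPM at day 14, and rose by 2.17 ± 0.515 at each day (adjusted p = 0.00138 and 0.0019). In Acomys Oasl2 rose by 1.57 ± 0.57 at day 7 (adjusted p = 0.0222), from 1.39 to 3.35 CPM up to 4.44 to 8.96 CPM. Oas2 rose in Mus at both days (1.75 ± 0.602 and 1.88 ± 0.6), and in Acomys it had 2 to 13 counts per library (-0.24 ± 0.653 and -0.25 ± 0.652). Oas3 rose in Mus at day 7 (0.96 ± 0.388, adjusted p = 0.0417), and in Acomys it was at -0.23 ± 0.327.

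Ifit1 and Ifit2 encode proteins that bind viral RNA and hold back its translation. Ifit1 was at 5.84, 5.64 and 11.4 CPM in unwounded Mus skin, at 40.6, 9.76, 6.89 and 27.4 CPM at day 7, and at 85.4, 6.2, 13.5 and 48.3 CPM at day 14. In both wounds replicates 1 and 4 were above unwounded skin and replicate 2 was within its range. The day 7 change was 1.47 ± 0.718 (adjusted p = 0.0939) and the day 14 change 2.33 ± 0.721 (adjusted p = 0.0134). Ifit2 passed at day 14 only (1.33 ± 0.526, adjusted p = 0.0476). Ifit3, from the Mus table, was at 11.8, 3.64 and 6.66 CPM at day 0, at 32, 4.8, 3.72 and 9.59 CPM at day 7 and at 71.7, 2.11, 7.64 and 17.7 CPM at day 14, with the same order of libraries as Ifit1 within each wound group, and did not pass (0.78 ± 1.1 and 1.76 ± 1.12). In Acomys, Ifit1 stayed between 7.4 and 20.6 CPM and Ifit2 between 3.55 and 15 CPM in all 12 libraries, with changes between -0.01 and 0.19.

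The Ifitm genes encode small membrane proteins that hinder viral fusion. Ifitm1 was at 5.39, 4.51 and 3.75 CPM in unwounded Mus skin, at 86.9, 32.5, 39.6 and 57.6 CPM at day 7, and back at 3.33, 3.65, 6.17 and 7.16 CPM at day 14. The day 7 wounds were apart from both other groups, with a rise of 3.58 ± 0.339 (adjusted p = 2.23e-08) and then a change of -3.39 ± 0.302 to day 14 (adjusted p = 1.13e-07). Among all members this was the only call from day 7 to day 14 in Mus made under all 17 alternatives. In Acomys, Ifitm1 started at 95.1, 87, 72.6 and 116 CPM and fell to 40.1, 56.1, 34.5 and 31.9 CPM at day 7 and 43.6, 38.5, 45.5 and 49.7 CPM at day 14. All wounds were below all unwounded skins, by -1.19 ± 0.248 (adjusted p = 0.000302) and -1.06 ± 0.247 (adjusted p = 0.00166). Neutrophil markers (6 of 7 measured) moved with the Mus peak: their sum was 34 to 41.1, 1690 to 4060 and 118 to 340 CPM at days 0, 7 and 14 in Mus, and 55.7 to 109, 1350 to 2060 and 46.2 to 76.2 CPM in Acomys, where Ifitm1 fell. Ifitm3 rose in Mus by 1.16 ± 0.212 (adjusted p = 8.97e-05) and 0.59 ± 0.21 (adjusted p = 0.0268), and in Acomys lay between 72.8 and 105 CPM throughout (0 ± 0.187 and -0.1 ± 0.187).

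Bst2, which encodes tetherin, a protein that holds budding virus at the cell surface, rose in Mus from 6.29, 5.52 and 6.88 CPM to 32.1, 13.4, 8.38 and 22.7 CPM at day 7 and 47.1, 14, 10.7 and 30 CPM at day 14 (1.62 ± 0.472, adjusted p = 0.00686, and 2.03 ± 0.471, adjusted p = 0.00154). In Acomys it went from 30.2, 24.1, 20.5 and 30 CPM to 35.4, 69.7, 55.6 and 58.2 CPM (1.06 ± 0.369, adjusted p = 0.018) and was at 39.8, 53.5, 54 and 42.3 CPM at day 14 (0.85 ± 0.369, adjusted p = 0.0749). No Acomys wound at either day fell into the range of unwounded skin. Ifi44 was at 2.7, 1.25 and 2.13 CPM in unwounded Mus skin, at 15.2, 2.88, 2.97 and 7.56 CPM at day 7 and at 26.3, 3.83, 4.54 and 12.2 CPM at day 14. It rose by 1.84 ± 0.749 (adjusted p = 0.0448) and 2.55 ± 0.736 (adjusted p = 0.00825), and in Acomys its changes were -0.18 ± 0.555 and -0.19 ± 0.554. Xaf1, a pro-apoptotic partner of XIAP, rose in Mus at day 14 only (0.89 ± 0.282, adjusted p = 0.014), and Ifi35 changed by -0.23 ± 0.187 and -0.05 ± 0.187.

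**Figure D3:**
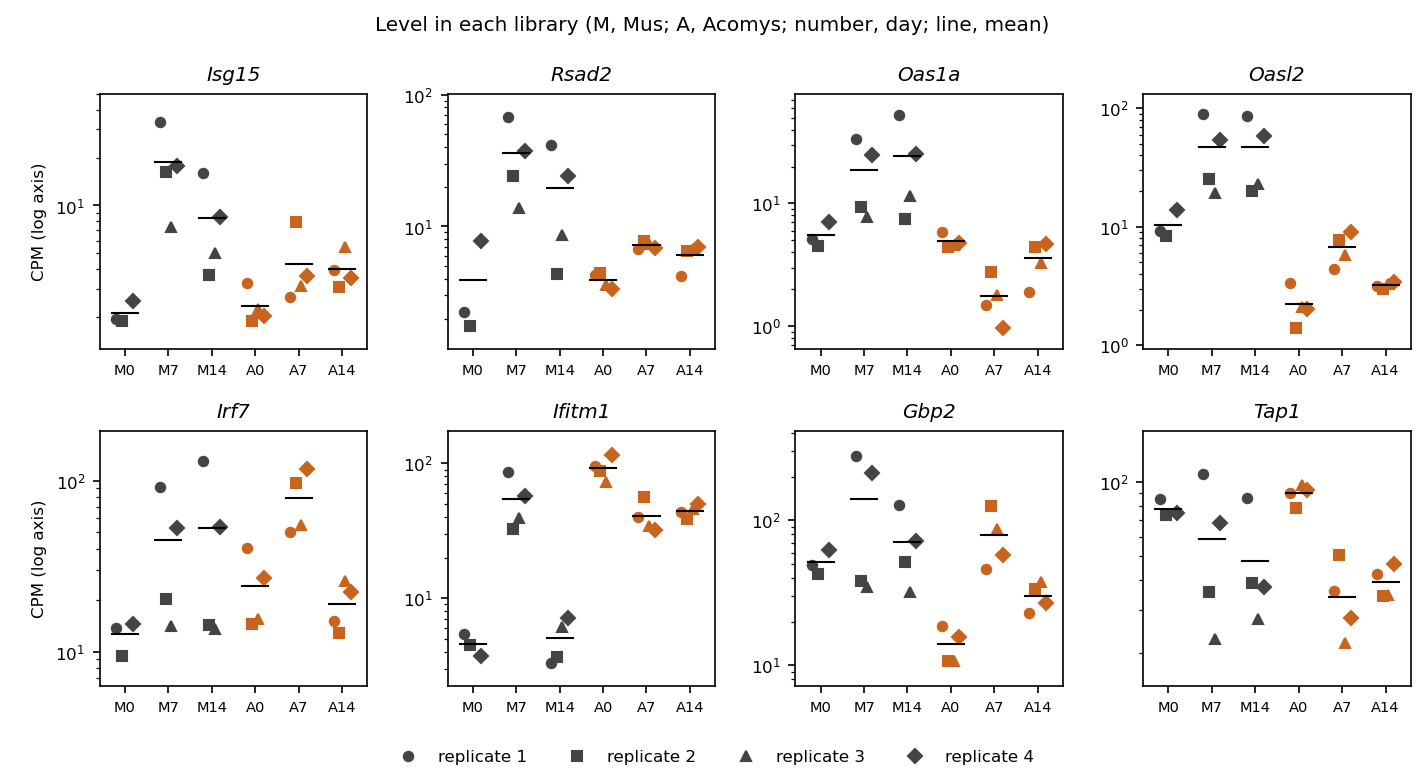
Points are libraries (Mus grey, Acomys orange; symbols are replicate numbers), the y axis is CPM on a log scale, and lines are group means. Isg15 and Oas1a are above unwounded skin in all Mus wounds, some only slightly, and Rsad2 in all Mus day 7 wounds, Ifitm1 peaks at day 7 in Mus only, and Gbp2 and Irf7 in Acomys are highest at day 7.

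Of the 5 interferon-inducible GTPases, 4 rose at day 7 in Acomys and 1 in Mus, and the difference between the species passed for none of them, as given below. Gbp2, Gbp3, Gbp5 and Irgm1 rose in Acomys, and Irgm1 in Mus (1.49 ± 0.586, adjusted p = 0.0383). The guanylate-binding proteins attack vacuoles that hold intracellular microbes. Acomys Gbp2 was at 18.6, 10.7, 10.7 and 15.7 CPM at day 0, at 46, 126, 86.7 and 58.1 CPM at day 7, and at 22.8, 33.5, 37.7 and 26.9 CPM at day 14. Wounds at both days were above unwounded skin in every library; the change was 2.49 ± 0.592 at day 7 (adjusted p = 0.00123) and 1.1 ± 0.585 at day 14 (adjusted p = 0.148). Mus Gbp2 was at 49.1, 42.6 and 62.3 CPM at day 0, at 277, 38.4, 34.9 and 212 CPM at day 7 and at 127, 51.6, 31.8 and 72.6 CPM at day 14. In the day 7 wounds replicates 1 and 4 were far above unwounded skin and replicates 2 and 3 below all of it. The change of 1.45 ± 0.611 did not pass (adjusted p = 0.0527), while DESeq2 called 4 of 5 of these genes at day 7 in Mus.

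Mus Gbp5 was at 8.09, 6.65 and 9 CPM at day 0, at 53.8, 3.84, 4.73 and 45 CPM at day 7, and at 33.6, 10.8, 4.54 and 15 CPM at day 14, again split between replicates 1 and 4 and the rest. Gbp3 passed in Mus at day 14 (1.71 ± 0.566, adjusted p = 0.0191), with replicates at 80.7, 24.6, 16.4 and 48.4 CPM against 9.91 to 16.3 CPM. In Acomys at day 7, Gbp5 rose by 1.7 ± 0.616 (adjusted p = 0.023) and Gbp3 by 1.18 ± 0.494 (adjusted p = 0.0456). Irgm1, an immunity-related GTPase that governs autophagy, was at 1.81 to 5.85 CPM in unwounded Acomys skin, and at 4.84, 26.6, 7.38 and 7.02 CPM at day 7. Its rise of 1.4 ± 0.565 (adjusted p = 0.038) included replicate 2, far above the other 3 and the highest Acomys day 7 library for 35 of 45 members (20.5% of all genes). Without that library 6 members were higher and 5 lower in Acomys at day 7. Leaving out day 0 replicate 2 gave 8 higher and 4 lower, day 0 replicate 3 gave 7 and 4, and day 7 replicate 4 gave 11 and 3. The fall in the count was thus not tied to day 7 replicate 2 alone. Shares of all genes called in these fits are not given here. Igtp did not pass in either species (1.02 ± 0.686 in Mus and -0.47 ± 0.634 in Acomys at day 7).

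No class I processing gene passed as higher in either species. In Acomys at day 7, though, 1 of 5 was higher at an unadjusted p under 0.05, and DESeq2 called 1 higher. Psmb8 and Psmb9 are immunoproteasome subunits, Tap1 and Tap2 form the peptide transporter, and B2m is the light chain of class I molecules. In Mus none of the 5 passed at either day (0 at an unadjusted p under 0.05, 0 with DESeq2), and their medians were -0.22 and -0.43. Tap1 was at 85.2, 73.7 and 75.1 CPM in unwounded Mus skin, at 108, 35.7, 22.8 and 68 CPM at day 7 and at 86, 38.9, 27.7 and 37.5 CPM at day 14, so that wounds lay on both sides of unwounded skin. Without the Mus libraries numbered 1, Tap1 and Tap2 fell at day 14 (-1.09, adjusted p = 0.0169, and -0.89, adjusted p = 0.0147). In Acomys, Tap1 was at 90.5, 78.8, 97.6 and 93 CPM at day 0, at 35.9, 50.6, 22 and 27.9 CPM at day 7 and at 42.2, 34.2, 34.5 and 46.2 CPM at day 14. All 8 wounds were below all 4 unwounded skins, with changes of -1.4 ± 0.379 (adjusted p = 0.00334) and -1.2 ± 0.376 (adjusted p = 0.0161). Tap2 fell short of the threshold at day 14 (-0.67 ± 0.279, adjusted p = 0.064) although no wound overlapped unwounded skin, and Psmb8 was at 0.79 ± 0.369 at day 7 (adjusted p = 0.0711). B2m was at 522 to 538 CPM in unwounded Mus skin and at 672, 351, 317 and 472 CPM at day 7 (-0.22 ± 0.296), and in Acomys changed by 0.34 ± 0.275 and -0.28 ± 0.275.

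In class II, no change of H2-Aa, H2-Ab1, H2-Eb1 or Cd74 passed in either species. These genes encode chains of the presenting molecule and its invariant chain. In Mus 0 of 5 genes passed at days 7 and 14 (0 at an unadjusted p under 0.05, 0 with DESeq2). H2-Aa was at 380, 429 and 312 CPM in unwounded Mus skin, at 627, 254, 275 and 410 CPM at day 7 and at 561, 607, 284 and 422 CPM at day 14, and changed by 0.07 ± 0.383 and 0.33 ± 0.384. In Acomys it was at 105, 61.9, 46.8 and 151 CPM at day 0, at 43.4, 107, 121 and 85.5 CPM at day 7 and at 82.9, 111, 104 and 95.3 CPM at day 14 (-0.03 ± 0.358 and 0.11 ± 0.358). Ciita, the master regulator of class II, fell in Acomys at day 7, from 27.3, 10.7, 14.9 and 23.7 CPM to 9.67, 13.2, 11.5 and 11.9 CPM (-0.74 ± 0.263, adjusted p = 0.0198), and then rose by 0.66 ± 0.262 (adjusted p = 0.0457), with every day 14 library above every day 7 library. In Mus it was at 38.5 to 42.7 CPM at day 0 and at 74.1, 32.2, 36.6 and 69.1 CPM at day 7 (0.39 ± 0.268, adjusted p = 0.226).

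H2-Eb1 set the Mus libraries apart by their number rather than by day. In the libraries numbered 1 it had 14, 30 and 29 counts at days 0, 7 and 14, or 2.1, 4.12 and 4.83 CPM, while in the other 8 Mus libraries it had 249 to 1204 counts. Its count was 0.939, 1.08 and 1.38% of that of H2-Ab1 in the libraries numbered 1, and 24.4, 27 and 28.4% in those numbered 2. In those numbered 3 it was 62.2 and 54.5%, and in those numbered 4 it was 58.7, 62 and 61.5%. The same was seen in the Mus table (0.855 to 1.26%, 33.4 to 38.6%, 66.7 to 73.9% and 72.1 to 79.4%). In Acomys the share lay between 118 and 153% in all 12 libraries. H2-Aa, H2-Ab1 and Cd74 were not low in the libraries numbered 1. H2-D1, a class I heavy chain outside the list that was looked at after its values were seen, differed by number in the Mus table as well: 175, 188 and 153 CPM in the libraries numbered 4 at days 0, 7 and 14, against 421 to 1400 CPM in the others. The Mus day 7 change of H2-Eb1 was 0.27 ± 0.994, and the labels do not say whether libraries with the same number come from 1 animal.

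**Figure D4:**
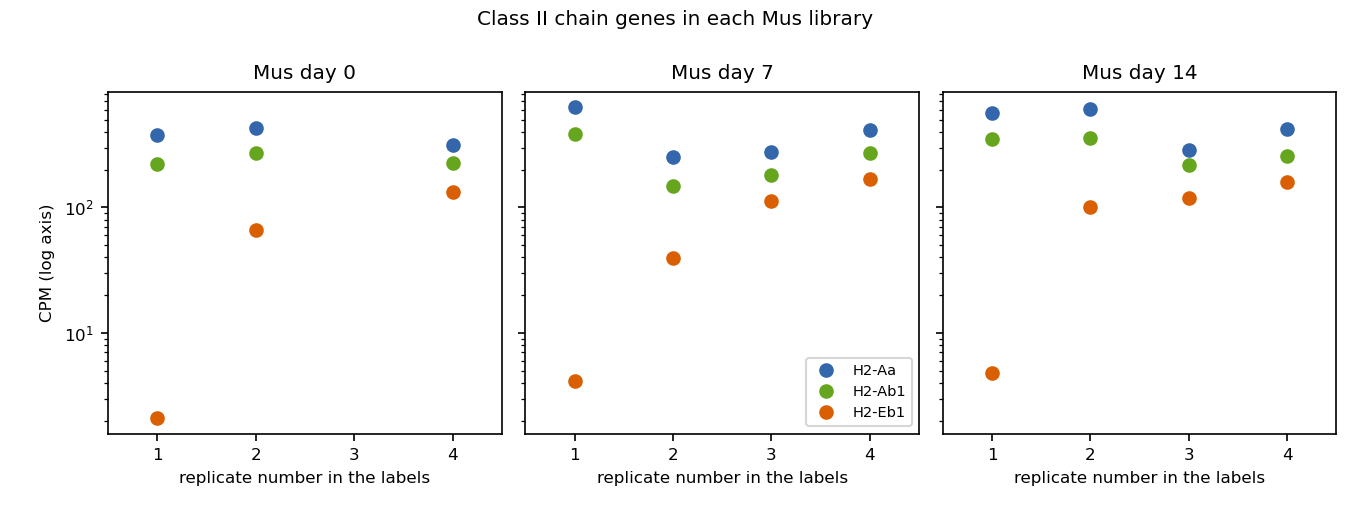
Each panel is a day in Mus, with the replicate number on the x axis and CPM on a log y axis; points are H2-Aa, H2-Ab1 and H2-Eb1 in 1 library. H2-Eb1 is at 2.1, 4.12 and 4.83 CPM in the libraries numbered 1 at the 3 days and at 39.8 to 169 CPM in all others, while H2-Aa and H2-Ab1 stay between 147 and 627 CPM.

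The changes of the 2 species were then compared directly, as the Acomys change minus the Mus change. At day 7, 6 of 44 members passed, all with the smaller or more negative change in Acomys, and 0 in the other direction (0 at an unadjusted p under 0.05, 0 with DESeq2). Over all genes 17.1% were higher and 18.7% lower, so the members' share of 13.6% lower was below that of all genes. The 6 were Ifitm1 (-4.77 ± 0.419, adjusted p = 4.31e-08), Oas1a (-3.25 ± 0.842, adjusted p = 0.00523), Rsad2 (-2.3 ± 0.88, adjusted p = 0.0477), Isg15 (-2.28 ± 0.725, adjusted p = 0.0183), Ifitm3 (-1.16 ± 0.281, adjusted p = 0.00286) and Ciita (-1.13 ± 0.376, adjusted p = 0.0235). Ifitm1 and Oas1a passed under all 23 alternatives. Without each of the 15 libraries of this comparison in turn, Ifitm3 and Isg15 also passed (highest adjusted p = 0.01 and 0.0463). Ciita missed the threshold when replicate 1 of Acomys day 0, replicate 4 of Mus day 0 or replicate 1 or 4 of Mus day 7 was dropped (up to adjusted p = 0.0623). Of these 15 fits Rsad2 passed in 3, those that dropped replicate 4 of Mus day 0 and replicate 2 or 3 of Mus day 7, with adjusted p-values up to 0.122. Without the 3 muscle-poor Mus libraries 12 members passed, all lower. One of those libraries, day 7 replicate 3, was the lowest of its group for 30 of 44 members. The share of all genes called in that fit is not given here. The transcription factors and GTPases gave 0 of 5 each (0 at an unadjusted p under 0.05 and 0 with DESeq2).

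At day 14, 5 of 44 members passed, again all lower in Acomys, and 0 higher (0 at an unadjusted p under 0.05, 0 with DESeq2), against 13.1% of all genes higher and 12% lower, so their share of 11.4% was near that of all genes. They were Ifi44 (-2.74 ± 0.922, adjusted p = 0.0351), Oas1a (-2.59 ± 0.805, adjusted p = 0.0233), Oasl1 (-2.57 ± 0.901, adjusted p = 0.0423), Dhx58 (-1.93 ± 0.622, adjusted p = 0.0278) and Ifitm1 (-1.25 ± 0.448, adjusted p = 0.0454). Of the 44 estimates 41 were below 0, with a median of -0.65 where the median of all genes was -0.01. The count was 20 without the muscle-poor libraries and 1 without the Mus libraries numbered 1, all of them lower. The first of these fits kept only replicates 1 and 4 of Mus day 14, the 2 highest there for 37 of 44 members. Shares of all genes called in these fits and in those that follow are not given here. Leaving out 1 library gave 0 without Mus day 0 replicate 2, 1 when replicate 1 was dropped from Mus day 0, from Mus day 14 or from Acomys day 0, and 2 when replicate 4 was dropped from any of those 3 groups or replicate 1 or 2 from Acomys day 14. It gave 3 without Acomys day 14 replicate 3, 8 without Mus day 14 replicate 2 and 10 without Mus day 14 replicate 3. None of the 5 genes passed under all 23 alternatives.

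**Figure D5:**
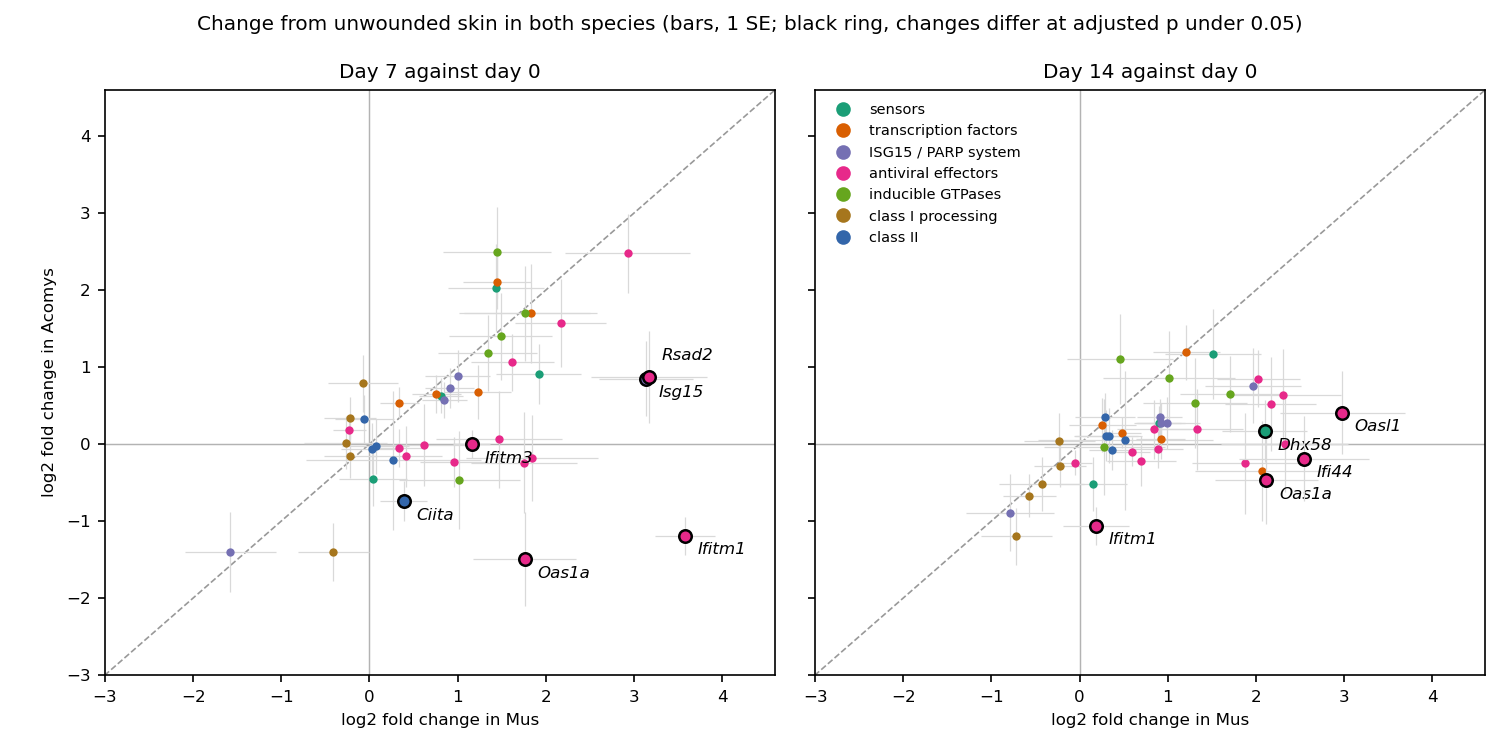
Each point is 1 of 44 members, with its log2 fold change from day 0 in Mus on the x axis and in Acomys on the y axis, bars of 1 SE, and colour for its role; black rings and names mark the 6 genes at day 7 and 5 at day 14 whose changes differed at an adjusted p under 0.05. All ringed genes lie below the dashed line of equal change.

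Levels set across species also carry differences in gene models and in how reads were assigned to each species' transcripts, so the comparisons at 1 day describe these tables. In unwounded skin 7 of 44 members were higher and 13 lower in Acomys, against 34.5% and 31.2% of all genes. The higher ones were 6 antiviral effectors (Ifitm1, Ifi44, Bst2, Oasl1, Oas3 and Ifitm3) and Psmb9, led by Ifitm1 (4.35 ± 0.344, adjusted p = 7.99e-10), and the lower ones included H2-Aa (-2.03 ± 0.386), H2-Ab1 (-1.88 ± 0.36), Ciita (-1.06 ± 0.271) and Cd74 (-0.97 ± 0.334). At day 7 there were 4 higher and 15 lower, against 35.9% and 34.9%, with Oas1a at -3.43 ± 0.583, Oasl2 at -2.81 ± 0.474 and Isg15 at -2.12 ± 0.431. By day 14, 3 were higher (Ifitm1, Bst2 and Psmb9) and 22 lower (50%), against 38.1% and 34.6% of all genes. The 22 included all 5 tested genes of the ISG15 and PARP group and 7 of 15 effectors, with Oasl2 (-3.86 ± 0.511, adjusted p = 1.47e-06), Oas1a (-2.76 ± 0.536) and Oas2 (-2.55 ± 0.553, in a gene whose Mus counts the shared table holds to only 10.9%). Leaving out the Mus libraries numbered 1 gave 7 higher and 14 lower at day 14, and the share of all genes called in that fit is not given here.

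Beyond the members, 113 further genes of the same pathways were looked at, of which 95 were tested. In Mus 48 rose and 7 fell at day 7 (50.5% and 7.37%, against 27% and 26.7% of all genes), and 36 rose and 9 fell at day 14 (37.9% and 9.47%, against 21.6% and 22.1%). In Acomys 45 rose and 11 fell at day 7 (47.4% and 11.6%, against 30.4% and 31.4%), and 25 rose and 10 fell at day 14 (26.3% and 10.5%, against 18.9% and 20%). From day 7 to day 14 in Acomys, 4 rose and 37 fell (4.21% and 38.9%, against 22.6% and 21.8%). The genes named next were among the 3 largest called changes in a direction, in each comparison named. A species or day not named for a gene may have changed as well. Socs3, a feedback inhibitor of cytokine receptors, rose at day 7 in both species (2.91 ± 0.314 in Mus and 4.08 ± 0.305 in Acomys). The class II pathway protease Ctss rose at day 7 in Acomys (3.07 ± 0.344), and its day 7 change in Mus is not given here. At day 14 Ctss was higher in both species (2.02 ± 0.366 in Mus and 1.82 ± 0.329 in Acomys). Cd80, a costimulator of T cells, rose in Mus (3.96 ± 0.336 and 2.09 ± 0.352), and Tmem173, which encodes STING, rose in Acomys (3.42 ± 0.31 and 1.47 ± 0.332). Ifnlr1, the receptor of lambda interferons, fell in Mus at both days (-2.36 ± 0.276 and -1.85 ± 0.268) and in Acomys at day 14 (-1.1 ± 0.264). Nlrc5, the regulator of class I genes, fell in Acomys at both days (-2.03 ± 0.352 and -1.85 ± 0.348), as did Tap1 among the members. Nlrc5 was also lower in Mus wounds. In the Mus table it was at 106, 91.5 and 113 CPM at day 0 and at 35.8 to 81.5 CPM in the wounds. The changes differed by -1.48 ± 0.295 for Eif2ak2, the kinase PKR, at day 14 (adjusted p = 0.000934), and by -3.41 ± 1.23 for Cxcl9, a chemokine for T cells, at day 7 (adjusted p = 0.0373). Over these 95 genes 16 differences were higher and 12 lower in Acomys at day 7, and 3 higher and 13 lower at day 14. Their shares of 16.8% and 12.6% at day 7 stood against 17.1% and 18.7% of all genes, and those of 3.16% and 13.7% at day 14 against 13.1% and 12%.

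The interferons themselves had few counts in Mus, and the following genes were looked at after their values were seen. Ifnk, an interferon of keratinocytes, had 19, 13 and 13 counts in the Mus table at day 0, 5, 1, 8 and 2 at day 7, and 9, 4, 15 and 7 at day 14. It fell at day 7 (-1.75 ± 0.549, adjusted p = 0.0188), with no overlap between the groups, and its day 14 change of -0.52 ± 0.499 did not pass (adjusted p = 0.416). In the Mus table Ifnb1 had 1 count and Ifne 1 count over all 11 libraries. Ifng had 0, 1 and 1 counts at day 0, 9, 0, 1 and 7 at day 7, and 2, 0, 0 and 1 at day 14. The 2 day 7 libraries with 9 and 7 counts were replicates 1 and 4, the 2 libraries highest for 43 of 44 members and for 7 of 11 lists of cell type markers, as given above. Cxcl10, a chemokine induced by interferon gamma, had 19, 25 and 25 counts at day 0, 330, 20, 12 and 68 at day 7 and 117, 19, 10 and 22 at day 14, and did not pass at day 7 (2.35 ± 1.18, adjusted p = 0.113). In the Acomys table Ifng had 52 to 114 counts in each of 12 libraries, with changes of 0 ± 0.224 and 0.03 ± 0.224 at days 7 and 14. Acomys Cxcl10 had 1, 54, 2 and 3 counts at day 7, the 54 in replicate 2, the library in which most members were highest.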

How the data were processed

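Total RNA of 23 libraries was analysed (3 Mus at day 0, 4 in each other group); a pooled normalised library had no column of its own and was not analysed here. The authors deposited a table of whole-number counts shared by both species, whose making is not given in the sources used here, and a table of expected counts per species, which were rounded to whole numbers. RSEM 1.2.28, Bowtie2, Trimmomatic 0.32, FastQC 0.11.4 and the build mm9 stand in the submitters' processing notes, which give them no roles. Spike-in rows (0.68 to 1.96% of counts in the shared table) were removed. Library totals were 5980683 to 9853153 counts in the shared table, 9339214 to 13188137 in the Mus table and 13090599 to 18470245 in the Acomys table.

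In R 4.3.3, with edgeR 4.0.16 and limma 3.58.1, counts were filtered with filterByExpr, scaled by TMM and fitted with all 6 groups in 1 robust quasi-likelihood model (common biological coefficient of variation 0.186). There were 11 contrasts, each tested two-sided, with Benjamini-Hochberg adjustment over 14514 genes and a threshold of 0.05. Plots use log2(CPM + 1). The fits were tested on simulated data. Members and lists were chosen with earlier results of these data known; per role, up to 4 members with the smallest adjusted p, and each whose changes differed between species, are given in full; further pathway genes were named from the 3 with the largest called change in each direction. Alternatives were DESeq2 1.42.0, its size factors, no filter, a minimum of 2-fold, only the groups compared, each species' own table, the replicate number as a block, and fits without single libraries, without 3 muscle-poor Mus libraries and without the Mus libraries numbered 1.

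Same-numbered libraries were not taken as pairs: in the shared table, where the block was fitted, not every correlation of their deviations passed 0.1. The submitters' column names carry a number of their own, which is also the same at each day for same-numbered libraries. If these are repeated samples of an animal, the p-values of the main fit ignore that pairing.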

Additional observations from a re-analysis of the deposited data

Results flagged for a closer look

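In 223 sets of 4 libraries (1 member in 1 group each), 7 had a library that stood apart from the other 3; chance flags about 1 in 20 such sets. Of the 7, 4 were in Acomys day 7 replicate 2. There Irf1 was at 65 CPM (others 29.3 to 32), Irgm1 at 26.6 CPM (others 4.84 to 7.38), Xaf1 at 19.5 CPM (others 11.4 to 12.5) and Usp18 at 7.67 CPM (others 3.16 to 3.91). Ciita was at 41 CPM in Mus day 14 replicate 3 (others 54.7 to 56.6). In Acomys day 14, Ifitm3 was at 84.3 CPM in replicate 1 (others 80 to 80.7) and Tap2 at 34.7 CPM in replicate 4 (others 26 to 26.4).

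The Acomys change differed from the Mus change by edgeR's test of the difference for 6 members at day 7: Ifitm1 (-4.77), Oas1a (-3.25), Rsad2 (-2.3), Isg15 (-2.28), Ifitm3 (-1.16) and Ciita (-1.13), on the log2 scale. It differed for 5 at day 14: Ifi44 (-2.74), Oas1a (-2.59), Oasl1 (-2.57), Dhx58 (-1.93) and Ifitm1 (-1.25). Adjusted p-values and the libraries on which they depend are given with the comparison above.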

How the results depend on the processing

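Counts of members called are given as higher and lower. No shares of all genes stand beside them in this section, so they do not say whether the members differ from other genes. With only the groups compared in the fit they were 14 and 1 for Mus day 7 (15 in all), 14 and 0 for Mus day 14, 0 and 1 for Mus day 14 against day 7, 9 and 5 for Acomys day 14 (14 in all), and 2 and 16 for Acomys day 14 against day 7 (18 in all). In each species' own table they were 12 and 0, 11 and 0, 0 and 1, 7 and 4 (11 in all), and 1 and 10 (11 in all) in the same order. Those Mus counts leave out Trim25 and Ifit3. With both included, the Mus table gave 13 and 0, 12 and 0, and 0 and 2. Testing for a change beyond 2-fold left 5 and 4 in Mus at days 7 and 14, 1 between them, 3 in Acomys at day 7 and 0 in both other Acomys comparisons, 2 and 0 of the differences between changes, and 6, 10 and 11 between species at days 0, 7 and 14. For Acomys day 14, DESeq2 called 1 transcription factor higher, and 1 antiviral effector and 2 class I processing genes lower. It gave 8 in all for the day 14 difference. Without the Mus libraries numbered 1, chosen after seeing the data, there were 13 in all in Mus at day 7, 11 at day 14 and 1 for the day 14 difference. Without the muscle-poor libraries there were 7 for Acomys day 14, 11 for Acomys day 14 against day 7, and 12 and 20 for the differences at days 7 and 14.

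With the replicate number as a replicate block, Mus day 7 had 26 and 1 and day 14 had 25 and 0. The block gave 6 for Mus day 14 against day 7, 6 for Acomys day 14, 17 for Acomys day 14 against day 7, and 11 and 17 for the differences. It was not run between species. It called Gbp2, Gbp3 and Gbp5 in Mus at day 7 (adjusted p = 0.0186, 0.00181 and 0.00921). Same-numbered Mus libraries correlated between day 0 and day 7 at 0.075 to 0.098 in the shared table and 0.12 to 0.163 in the Mus table, and between day 0 and day 14 at 0.061 to 0.143 and 0.12 to 0.209, each best with its own number, a hint from the data and not the design. Between days 7 and 14 in Mus, numbers 1, 3 and 4 correlated at 0.371, 0.583 and 0.239 in the shared table. In the Mus table they were at 0.408, 0.598 and 0.287. Number 4 was not best with its own number in the shared table. Number 2 was at -0.03 in the shared and 0 in the Mus table. Acomys pairs ran from -0.16 to 0.352 in the shared table.

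Leaving out 1 library gave 13 to 27 called for Mus day 7, 11 to 24 for Mus day 14, 1 to 5 between them, 11 to 20 for Acomys day 7, 3 for Acomys day 14, 2 to 6 for Acomys day 14 against day 7, 4 to 7 and 0 to 10 for the differences, and 14 to 17, 15 to 24 and 19 to 28 between species. Over single genes and alternatives, 7584 values kept their side of the threshold, 515 lost the call, 265 gained it and 0 changed sign while called. The 7584 can include values that changed sign without a call in either fit. Few counts limit Oas2 in Acomys and H2-Eb1 in the Mus libraries numbered 1.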
